A study of Mus musculus with 6 samples.

Results

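The proteasome is the large protease that degrades proteins tagged with ubiquitin in the cytosol and nucleus. Its core particle is a barrel of stacked rings, in which the outer alpha rings gate the entry and the inner beta rings carry the proteolytic sites. A cap, the regulatory particle, binds the ends of the barrel. The base of the cap holds a ring of ATPases that unfold the substrate, and the lid removes the ubiquitin chain. Dedicated chaperones assemble the rings and the base and are not part of the finished particle, and alternative activators can take the place of the cap. In beta cells, which make large amounts of secretory protein, the proteasome also degrades proteins drawn out of the endoplasmic reticulum.

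The genes described here are those of the proteasome and its activators, taken as every non-control probe whose gene symbol begins with Psma, Psmb, Psmc, Psmd, Psme, Psmf or Psmg and a number, apart from the interferon-induced Psmb8 and Psmb9. This gave 59 of 39429 probes and 48 genes. Only 27234 of those probes could be given a symbol here, so the list of members and of their probes may be incomplete. Testing required a signal well above background on each array of one group or the other. Of the 59 probes 57 met this, and all 57 did so on all 6 arrays. The probes of Psma8, the testis form of an alpha subunit, and of Psmb11, the thymus form of a beta subunit, were not well above background on any array. The 46 genes tested comprised 14 of the core particle, 17 of the cap, and 15 others: 7 assembly chaperones, 5 activators and inhibitors, the immunoproteasome subunit Psmb10, and Psmc3ip and Psme3ip1, which carry the name without being subunits.

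The arrays measured total RNA of MIN6B1 cells, a subclone of the mouse insulinoma line MIN6, which arose in mice that express the SV40 large T antigen under the insulin promoter and which still secretes insulin. Cells were transfected for 48 h with siGFP, an siRNA against green fluorescent protein, or with an siRNA against circHIPK3, a circular RNA spliced from Hipk3. All cells thus received an siRNA and the lipid transfection reagent, and each group held 3 samples on single-colour Agilent arrays. Nothing in the labels says that the samples came from separate cultures, so the p-values speak for the spread among these 6 arrays, and that spread may be only technical.

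Each array was scaled to the 75th percentile of its processed signal, which ranged from 2939 to 3669 units with overlapping groups. The median signal did separate the groups, at 344 to 399 units on the siGFP arrays and 416 to 441 on the circHIPK3 siRNA arrays. So did the share of probes well above background, at 77.7% to 79.8% on the siGFP arrays and 80.7% to 83.5% on the circHIPK3 siRNA arrays. The part of either in the results was not tested. No probe was saturated. All 10 beta cell markers looked up, among them Ins1, Ins2 and Pdx1, were well above background on all 6 arrays. So were 14 of 18 markers of other islet, exocrine, stromal and immune cells, Gcg and Ptprc included, while Sox9 and Cdh5 were among those not so on any array. Most probes of an array met this mark, so meeting it says little about cell type. Mean log2 signals after siGFP, relative to the 75th percentile, were 6.67 for Ins1 and -3.80 for Slc2a2, both beta cell markers. They were 4.39 for Gcg, 1.61 for Cd3e, -4.49 for Ptprc and -5.91 for Krt19. Replicate 1 of circHIPK3 siRNA shared a scan identifier in the file headers with the siGFP arrays, and replicates 2 and 3 shared another, and these sets are called slides here. In bulk RNA, fewer cells that express a gene and less RNA per cell cannot be told apart.

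Psmd5 was the one member that passed the test. It encodes S5b, a chaperone that binds the ATPase ring during assembly of the base of the cap and is released before the particle is complete. The probe gave log2 signals, relative to the array's 75th percentile, of 1.42, 1.50 and 1.37 on the siGFP arrays and 0.68, 0.54 and 0.72 on the circHIPK3 siRNA arrays. All 3 values after circHIPK3 siRNA lay below all 3 after siGFP, with a gap several times the spread inside either group. The means were 1.43 ± 0.07 (SD, n = 3) and 0.65 ± 0.09 (SD, n = 3). Psmd5 fell by 0.78 ± 0.10 (SE) on the log2 scale, to 58.1% of its siGFP signal (95% interval 49.5% to 68.2%), a 1.72-fold change with an adjusted p of 0.0305. The p is two-sided, from limma, and was adjusted by Benjamini-Hochberg across the 25776 genes and unnamed transcripts tested, with a threshold of 0.05. All adjusted p-values here were made in this way. Those of the alternative fits were adjusted across what each fit tested, from 24649 to 32451 genes, transcripts or probes. By unadjusted p, Psmd5 ranked 56 among the 25776. Of the 6 fits that each leave out an array, 1 kept the call. It leaves out circHIPK3 siRNA replicate 1, so its groups lie on different slides and treatment and slide cannot be told apart in it.

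**Figure D1:**
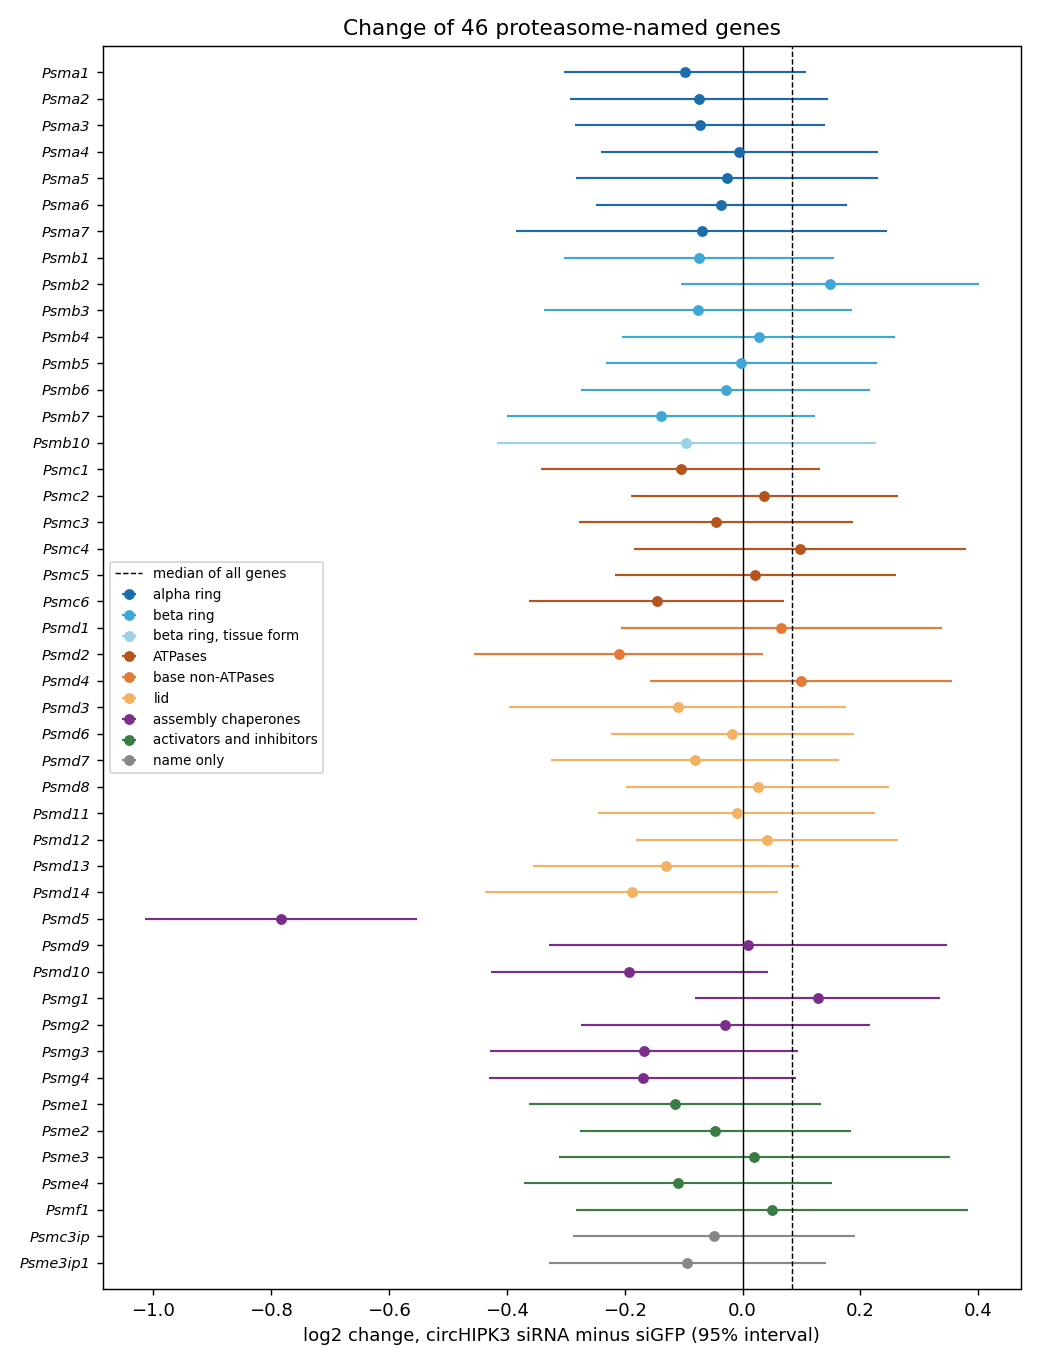
Log2 change with its 95% interval for the 46 genes tested, circHIPK3 siRNA minus siGFP (3 arrays each), coloured by class, with lines at 0 and at the median of all genes. Psmd5 lies at -0.78, and the other 45 lie between -0.21 and 0.15.

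Among the 46 members 1 was called lower and 0 were called higher. In the same fit 1.18% of all genes were called, 0.64% lower and 0.535% higher. At an unadjusted p under 0.05 the limma fit also gave 1 member lower and 0 higher, where 6.51% and 14.6% of all genes lay. The balance of directions over all genes depended on the scaling, with 165 lower and 138 higher here against 202 and 42 under quantile normalization. Psmd5 was lower and called in both. The other 45 members had changes from -0.21 to 0.15, and their 95% intervals ran from -0.46 to 0.40. Each of those 45 intervals lay above the interval of Psmd5 (-1.01 to -0.55). Psmd5 was singled out by its value, so this contrast is a description. A missed threshold does not show that a gene was unchanged, and the intervals give the changes that remain possible.

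The sequence upstream of Psmd5 is shown beside those of Psmd9 and Psmd10, which encode the other base chaperones named Psmd. Whether these sequences bear on the changes was not tested. Each line gives the 250 bases upstream of the annotated start, from RefSeq on GRCm38.p6, 5′ to 3′ on the gene's strand. Psmd5 is on the minus strand at chr2:34870963-34871212, Psmd9 on the plus strand at chr5:123227940-123228189 and Psmd10 on the minus strand at chrX:140956712-140956961. Capitals mark matches to 3 motifs on either strand.
Psmd5: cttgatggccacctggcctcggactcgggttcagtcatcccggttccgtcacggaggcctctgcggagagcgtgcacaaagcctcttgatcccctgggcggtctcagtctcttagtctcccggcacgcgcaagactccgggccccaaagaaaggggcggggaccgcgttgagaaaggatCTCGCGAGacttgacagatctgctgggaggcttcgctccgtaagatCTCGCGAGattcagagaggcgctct
Psmd9: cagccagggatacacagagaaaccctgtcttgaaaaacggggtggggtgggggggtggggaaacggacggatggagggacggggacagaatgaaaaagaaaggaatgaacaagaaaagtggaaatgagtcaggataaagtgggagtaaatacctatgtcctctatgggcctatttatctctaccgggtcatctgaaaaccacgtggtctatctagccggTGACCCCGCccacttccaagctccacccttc
Psmd10: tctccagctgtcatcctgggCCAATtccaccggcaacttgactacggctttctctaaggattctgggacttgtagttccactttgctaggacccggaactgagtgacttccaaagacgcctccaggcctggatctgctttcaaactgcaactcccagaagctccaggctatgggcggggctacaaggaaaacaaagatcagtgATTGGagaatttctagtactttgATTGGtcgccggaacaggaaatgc

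The motifs were TGACNNNGC, the core of the antioxidant response element that Nfe2l1 and Nfe2l2 bind with small Maf proteins, CCAAT, the box bound by NF-Y, and CTCGCGAG, which reads alike on both strands and was picked after the Psmd5 sequence had been read. Their matches in these sequences do not overlap. Psmd5 holds CTCGCGAG at 2 places, with first bases 71 and 25 bases upstream of the start, and neither of the other motifs. In Psmd9 there is 1 antioxidant response element core, 31 bases upstream. In Psmd10 there are 3 CCAAT boxes, 230, 47 and 24 bases upstream. Over windows of 300 bases (250 before and 50 after the start), CTCGCGAG occurs in 1.04% of 27025 genes with a promoter in the table and in 1 of the 40 members with one. The antioxidant response element core occurs in 6 of the 40 (15.0%) against 13.99% of all genes, and CCAAT in 15 (37.5%) against 41.1%. The members with the element core were Psmb5, Psmb6, Psmc6, Psmd9, Psmd12 and Psme4, and none of these 6 passed the test, with changes from -0.15 to 0.04. A match is a stretch of letters and does not show that a factor binds there.

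None of the other 6 assembly chaperones passed the test. Psmd10 encodes gankyrin, which also binds the ATPase ring. It gave log2 signals of -0.30, -0.19 and -0.31 after siGFP and -0.35, -0.49 and -0.54 after circHIPK3 siRNA. The 3 circHIPK3 siRNA values were the lower ones without overlap, but the difference was small, -0.19 ± 0.10 (SE, limma adjusted p = 0.305), and its second probe gave -0.10 ± 0.09. For Psmd9, which encodes p27, the lead probe gave 0.01 ± 0.14 and the second probe 0.05 ± 0.13 (SE), with groups that overlapped. Paaf1, the remaining base chaperone, was looked up under its own name and had no tested probe among those named. The core particle chaperones Psmg1, Psmg2, Psmg3 and Psmg4 pair up to template the alpha ring. Psmg1 lay at 1.93, 1.89 and 1.95 after siGFP and 2.03, 2.10 and 2.03 after circHIPK3 siRNA. It was the single member whose circHIPK3 siRNA values all lay above its siGFP values, by 0.13 ± 0.09 (SE, limma adjusted p = 0.423), and its second probe, at 0.03 ± 0.09, had overlapping groups. Its partner Psmg2 gave -0.03 ± 0.10, Psmg3 gave -0.17 ± 0.11, and Psmg4 gave -0.17 ± 0.11 (SE) with groups apart in the lower direction.

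**Figure D2:**
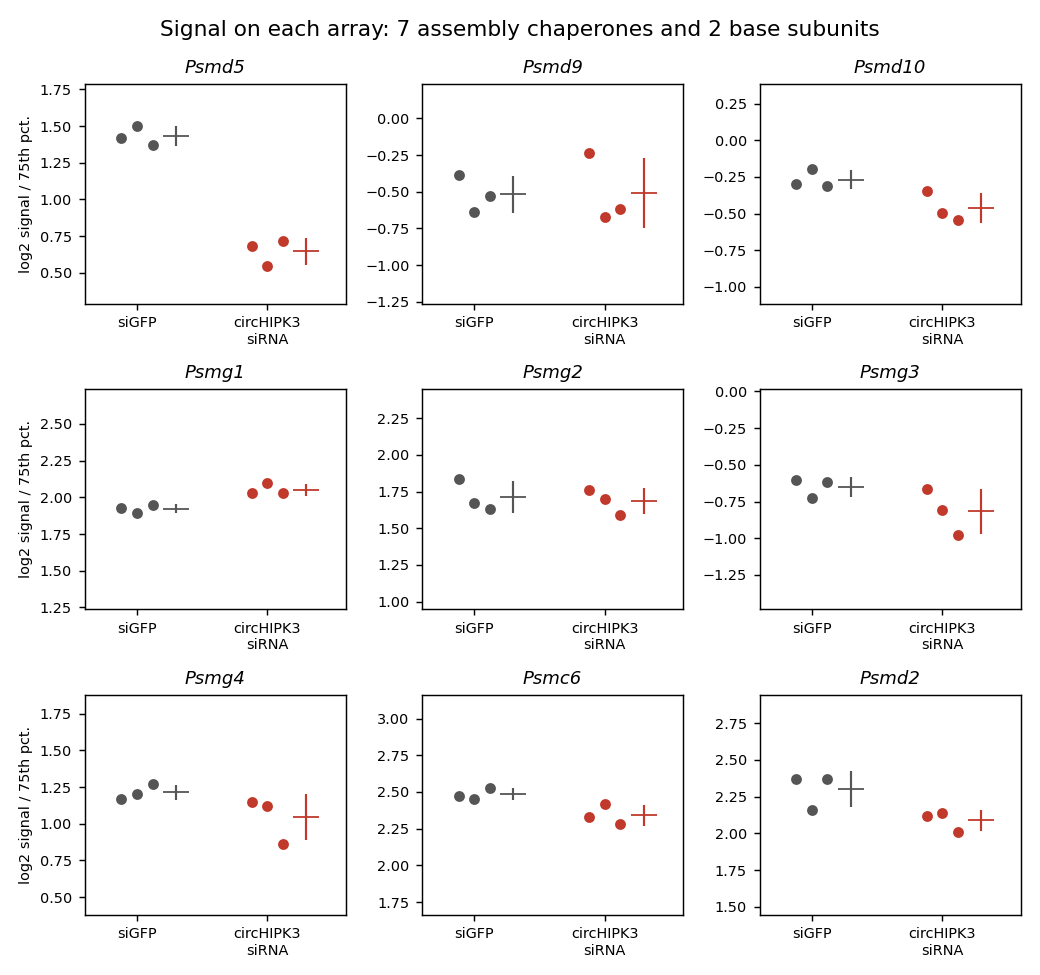
Log2 signal relative to the array's 75th percentile on each of the 6 arrays for the 7 assembly chaperones and the base subunits Psmc6 and Psmd2, with the mean and SD of each group (n = 3) beside the points and every axis spanning the same range. Psmd5 drops from between 1.37 and 1.50 to between 0.54 and 0.72, whereas the other 8 genes shift by 0.21 or less.

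In the core particle 0 of 14 genes passed the test in either direction. The alpha ring, whose subunits Psma1 to Psma7 form the gate, had changes from -0.10 to -0.0054, all 7 below 0. Psma1 had the smallest p of the ring, with log2 signals of 3.26, 3.20 and 3.21 after siGFP and 3.10, 3.13 and 3.14 after circHIPK3 siRNA. Its groups did not overlap, yet the difference of -0.10 ± 0.09 (SE) was close in size to its error, with a limma adjusted p of 0.535. Psma3 lay at 3.61, 3.52 and 3.61 after siGFP and 3.51, 3.47 and 3.55 after circHIPK3 siRNA, a difference of -0.07 ± 0.09 (SE) with overlapping groups. Psma4 lay nearest the median of all genes, at 1.92, 2.00 and 2.02 after siGFP and 1.85, 2.02 and 2.06 after circHIPK3 siRNA. Its 2 probes gave -0.01 ± 0.10 and -0.15 ± 0.15 (SE). Psma2, Psma5, Psma6 and Psma7 lay at -0.07, -0.03, -0.04 and -0.07.

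Among the beta subunits, Psmb5, Psmb6 and Psmb7 carry the chymotrypsin-like, caspase-like and trypsin-like activities. Psmb5 gave log2 signals of 4.64, 4.51 and 4.70 after siGFP and 4.68, 4.57 and 4.59 after circHIPK3 siRNA. The groups overlapped fully, with a difference of -0.0023 ± 0.10 (SE, 95% interval -0.23 to 0.23), and the second probe gave 0.04 ± 0.11. Psmb6 gave 4.95, 4.79 and 4.998 after siGFP and 4.98, 4.87 and 4.80 after circHIPK3 siRNA, with overlap and a difference of -0.03 ± 0.10 (SE, 95% interval -0.27 to 0.22). Psmb7 gave 1.54, 1.37 and 1.38 after siGFP and 1.31, 1.15 and 1.42 after circHIPK3 siRNA. Only circHIPK3 siRNA replicate 3 lay inside its siGFP range, and the difference was -0.14 ± 0.11 (SE, limma adjusted p = 0.490). The structural subunit Psmb2 had the highest change of all members, 0.15 ± 0.11 (SE, limma adjusted p = 0.445), from values of 1.85, 1.70 and 1.81 after siGFP and 1.85, 1.87 and 2.09 after circHIPK3 siRNA. The circHIPK3 siRNA replicate 3 array lay well above the siGFP range, replicate 2 barely above it and replicate 1 within it. Psmb4, nearest the median of all genes, lay at 3.52, 3.41 and 3.62 after siGFP and 3.56, 3.49 and 3.57 after circHIPK3 siRNA. Psmb1 and Psmb3 lay at -0.07 and -0.08.

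In the cap 0 of 17 genes passed in either direction. Psmc1 to Psmc6 encode the ATPases of the base, to which the protein made from Psmd5 binds. Psmc6 gave 2.48, 2.45 and 2.53 after siGFP and 2.33, 2.42 and 2.28 after circHIPK3 siRNA. Its groups did not overlap, the circHIPK3 siRNA arrays being lower, with a difference of -0.15 ± 0.09 (SE, limma adjusted p = 0.385). Psmc1 gave 3.29, 3.08 and 3.25 after siGFP and 3.14, 3.12 and 3.03 after circHIPK3 siRNA, a difference of -0.11 ± 0.10 (SE), and its second probe gave -0.11 ± 0.09. Psmc4 gave 2.68, 2.62 and 2.76 after siGFP and 2.89, 2.57 and 2.89 after circHIPK3 siRNA, with circHIPK3 siRNA replicate 2 below and the other two above the siGFP range. Psmc2, Psmc3 and Psmc5 lay at 0.04, -0.04 and 0.02.

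Of the base subunits without ATPase activity, Psmd1 and Psmd2 encode the large scaffold proteins and Psmd4 a ubiquitin receptor. Psmd2 had the lowest change of the core and cap, from 2.37, 2.16 and 2.37 after siGFP and 2.12, 2.14 and 2.01 after circHIPK3 siRNA. All 3 circHIPK3 siRNA values were below the siGFP values, the nearest pair almost touching, and the difference of -0.21 ± 0.11 (SE, 95% interval -0.46 to 0.04) had a limma adjusted p of 0.289. Psmd4 lay at 3.12, 3.06 and 3.23 after siGFP and 3.39, 3.13 and 3.19 after circHIPK3 siRNA, with overlap and a difference of 0.10 ± 0.11 (SE). Psmd1 lay at 0.07. In the lid, Psmd14 encodes the metalloprotease that cuts the ubiquitin chain from the substrate. It gave 0.91, 0.87 and 0.83 after siGFP and 0.71, 0.53 and 0.80 after circHIPK3 siRNA, without overlap, and a difference of -0.19 ± 0.11 (SE, limma adjusted p = 0.335). Psmd13, a structural lid subunit, gave 2.53, 2.49 and 2.62 after siGFP and 2.42, 2.33 and 2.49 after circHIPK3 siRNA. Those values met at the edge of the siGFP range, with a difference of -0.13 ± 0.10 (SE). Psmd12, also structural, gave 3.19, 3.07 and 3.19 after siGFP and 3.14, 3.17 and 3.27 after circHIPK3 siRNA, and its 2 probes 0.04 ± 0.09 and 0.05 ± 0.10 (SE). The remaining lid genes Psmd3, Psmd6, Psmd7, Psmd8 and Psmd11 ran from -0.11 (Psmd3) to 0.03 (Psmd8).

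The changes of core and cap genes were small and similar. The 31 changes had an SD of 0.08, against a median SE of 0.10 for a single gene, an SD of 0.29 over all genes and 0.19 over the brightest 20% of genes by mean signal. Across all genes the changes had a median of 0.08, which shifted by -0.10 when arrays were scaled to their median, so class medians are given relative to it. Relative to it the core particle had a median of -0.14 and the cap -0.10, and 42 of the 46 members (91.3%) lay below it, as by definition do 50% of all genes. That count depended on scaling and slide. It was 33 of 46 under quantile normalization and with the deposited value table, settings that gave nearly the same class medians. Under cyclic loess it was 35. It was 31 with slide as a fixed block and 32 on the first slide alone. Both slide settings compare circHIPK3 siRNA replicate 1 alone with the siGFP arrays, because the other slide holds only circHIPK3 siRNA arrays. They are not separate checks. Signal level moved with the count below the all-gene median: 35 of the 46 members, and 30 of the 31 core and cap genes, were in the brightest 20%, where the median change was -0.01 and 76.0% of genes were below that all-gene median. Unsubtracted, the core and cap medians were -0.05 and -0.02, and that sign turned under some settings, to 0.02 for the core with slide as a fixed block and on the first slide alone, and to 0.0071 for the cap under quantile normalization.

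**Figure D3:**
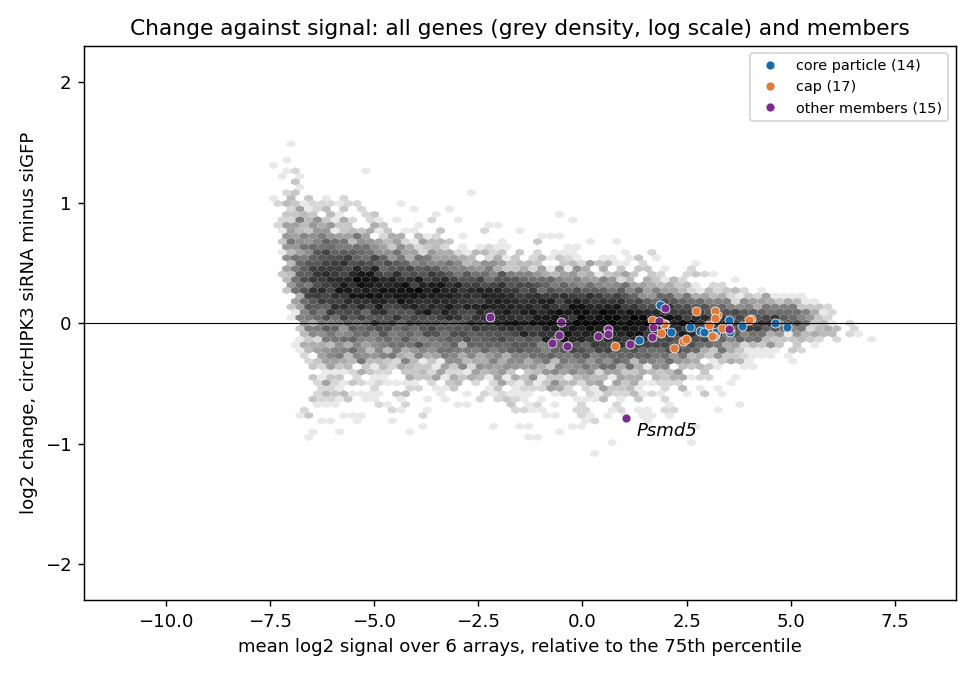
Log2 change, circHIPK3 siRNA minus siGFP, against mean log2 signal over the 6 arrays for all 25776 genes (grey density on a log scale) and the 46 members. Members other than Psmd5 lie within 0.21 of 0, and at the left of the plot, where few members lie, the mass of all genes is above 0.

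The slide also moved with the class medians. Relative to the siGFP mean of each gene and to the median of all genes on the array, the core median was -0.01, -0.02 and 0.06 on the siGFP arrays. It was -0.02 on circHIPK3 siRNA replicate 1, which shares their slide, and -0.14 and -0.17 on replicates 2 and 3. The cap median was -0.02, -0.02 and 0.06 on the siGFP arrays, then -0.05, -0.14 and -0.17. With slide as a fixed block the core and cap medians were -0.02 and -0.05. On the scale of its own siGFP mean Psmd5 lay at -0.75 on circHIPK3 siRNA replicate 1 and at -0.89 and -0.71 on replicates 2 and 3, while the median of the other 45 members was 0.000018, -0.08 and -0.06. Within the siGFP group, replicate 2 was the lowest array for 31 of the 46 members, and the median of the other 45 was -0.07 there, where Psmd5 was at 0.07.

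The groups did not overlap, in the lower direction, for 7 members (15.2%): Psma1, Psmc6, Psmd2, Psmd14, Psmd5, Psmd10 and Psmg4. Over all genes this held for 9.38%. In the brightest 20% it held for 3 of the 35 members (8.57%) and for 13.6% of genes. The other 4, Psmd14, Psmd5, Psmd10 and Psmg4, were among the 11 dimmer members (36.4%). With all genes split by signal into bands of equal size, the bands that hold these 11 had 9.16% to 15.9% of genes so. The higher share among the dimmer members rests on few genes, Psmd5 included, and was not tested. In the higher direction the groups did not overlap for Psmg1 alone, where 16.6% of all genes lay. The exact two-sided permutation test of 3 against 3 arrays gave p = 0.10 for each of these 8, the smallest value that it allows.

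The alternative activators and inhibitors gave 0 of 5 genes past the threshold. Psme1 and Psme2 encode the PA28 subunits that gamma interferon induces together with the immunoproteasome. Psme1 gave 1.65, 1.70 and 1.83 after siGFP and 1.70, 1.64 and 1.49 after circHIPK3 siRNA, a difference of -0.11 ± 0.11 (SE) with overlap. Psme2 gave 3.56, 3.45 and 3.62 after siGFP and 3.57, 3.43 and 3.50 after circHIPK3 siRNA, and its 2 probes -0.05 ± 0.10 and -0.08 ± 0.13 (SE). Both differences were within about 1 SE of 0. Psme3, which encodes the nuclear form of PA28, gave 1.88, 1.64 and 1.97 after siGFP and 1.62, 1.97 and 1.96 after circHIPK3 siRNA, with circHIPK3 siRNA replicate 1 at the bottom of the whole range and no difference beyond the error (0.02 ± 0.14, SE). Psme4, which encodes PA200, gave 0.31, 0.52 and 0.44 after siGFP and 0.26, 0.21 and 0.46 after circHIPK3 siRNA and a difference of -0.11 ± 0.11 (SE). Psmf1, which encodes the inhibitor PI31, gave -2.27, -2.20 and -2.24 after siGFP and -2.21, -2.44 and -1.91 after circHIPK3 siRNA, with circHIPK3 siRNA replicate 1 inside a tight siGFP group, replicate 2 below it and replicate 3 above it. Psmb10, the immunoproteasome subunit kept by the rule, gave -0.41, -0.75 and -0.36 after siGFP and -0.45, -0.69 and -0.67 after circHIPK3 siRNA and a difference of -0.10 ± 0.14 (SE). Psmb8 and Psmb9, outside the rule, had changes of -0.18 ± 0.20 and 0.10 ± 0.18 (SE), also not past the threshold. In a list of 21 interferon response genes 1 fell, Rsad2 (-1.40 ± 0.23, SE, limma adjusted p = 0.0490), and 1 rose, Gbp7 (1.15 ± 0.18, SE, limma adjusted p = 0.0437), with a list median of -0.12 relative to all genes. Unsubtracted, that median was -0.04. Over all genes 0.64% were called lower and 0.535% higher. Rsad2 was called in 9 of 21 alternatives and Gbp7 in 10, with limma adjusted p-values up to 0.266 and 0.174. Of the 6 fits that leave out an array, the fit without circHIPK3 siRNA replicate 1 kept both calls (limma adjusted p = 0.0258 and 0.0253), and both were lost in the others. In the fit that kept them treatment and slide coincide. Psmc3ip, which acts in meiotic recombination, and Psme3ip1, which binds the product of Psme3, lay at -0.05 and -0.09.

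Partners of the proteasome that have other names were followed in a list of 19, of which 18 were tested. There 1 fell and 0 rose, against 0.64% and 0.535% of all genes called lower and higher. The gene that fell was Txnl1, which encodes a thioredoxin-like protein bound to the cap. It gave -0.20, -0.32 and -0.22 after siGFP and -0.80, -0.87 and -0.74 after circHIPK3 siRNA, without overlap. Its difference was -0.56 ± 0.09 (SE), with a limma adjusted p of 0.0490, just inside the threshold. Ubqln2, which encodes a shuttle between ubiquitylated proteins and the cap, was next, at 0.10, 0.18 and 0.36 after siGFP and -0.22, -0.10 and -0.26 after circHIPK3 siRNA. Its groups were also apart, but it was not called (-0.41 ± 0.11, SE, limma adjusted p = 0.110). Groups were apart in the lower direction for 6 of the 18 and in the higher direction for 1, against 9.38% and 16.6% of all genes. The higher 1 was Ube3c, at 0.27 ± 0.09 (SE, limma adjusted p = 0.161). The list was not tested as a set. The built-in partners Adrm1, a ubiquitin receptor of the base, and Sem1, a small lid subunit, lay at -0.02 ± 0.10 and -0.08 ± 0.10 (SE), and the core particle maturation factor Pomp at 0.04 ± 0.09 (SE). The list had a median of -0.13 relative to all genes, not matched for signal, as low as the 46 members (-0.13). Unsubtracted, both medians were -0.05.

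No gene passed in 3 further lists, against 1.18% of all genes called. Of 13 regulators of proteasome transcription, Ngly1, which activates the factor encoded by Nfe2l1, and Stat3 had the smallest p, with -0.23 ± 0.14 and 0.24 ± 0.15 (SE). Nfe2l1 itself, which drives proteasome genes when the protease is inhibited, lay at 0.11 ± 0.16 (SE) and Nfe2l2 at -0.18 ± 0.13 (SE). Of 25 genes of ubiquitin supply and transfer, the mitotic conjugating enzyme gene Ube2c (-0.37 ± 0.14, SE) and Ube2d1 (-0.26 ± 0.12, SE) came first, and the polyubiquitin gene Ubb lay at -0.11. Of 12 genes of the unfoldase that feeds the proteasome, Vcp, its ATPase, lay at -0.31 ± 0.13 (SE, limma adjusted p = 0.224) and its cofactor gene Nsfl1c at -0.24 ± 0.11 (SE, limma adjusted p = 0.260). The medians of these lists relative to all genes were -0.12, -0.10 and -0.07, again not matched for signal. Unsubtracted, they were -0.04, -0.02 and 0.01. In the same limma fit without adjustment, Ube2c and Vcp had p-values of 0.0317 and 0.0429.

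The genes next to Psmd5 on the chromosome, in the order of the RefSeq table, were not called either. Of the 5 protein-coding genes on each side 9 were tested, with changes from -0.08 to 0.58. The nearest tested ones were Fbxw2 at -0.08 ± 0.14 and, on the other side, Cutal at 0.18 ± 0.13 and Phf19 at -0.08 ± 0.09 (SE). The highest was AI182371 at 0.58 ± 0.12 (SE, limma adjusted p = 0.0668). It was dim, with a mean log2 signal of -5.24 after siGFP, and the tenth of genes at its signal level had a median change of 0.27. These neighbours were looked up after the value of Psmd5 was known.

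The size of the Psmd5 change held across processing more firmly than its call. Over 21 alternatives it stayed between -0.89 and -0.73, and it was called in 12 of them. Several alternatives leave its change in place by construction, so these are not separate checks. Relative to the median of all genes the Psmd5 change was -0.87 with the 75th percentile. Median scaling gave the same value by construction, because either scaling shifts all genes of an array alike. On the first slide alone, where circHIPK3 siRNA replicate 1 stands against the 3 siGFP arrays, the change was -0.75 ± 0.14 (SE), close to that with both slides. That fit takes the lone array to vary like the siGFP arrays. Slide as a fixed block rests on the same comparison and gives the same change, because the other slide holds only circHIPK3 siRNA arrays. The call was lost on leaving out siGFP replicate 1, 2 or 3 or circHIPK3 siRNA replicate 2 or 3, with limma adjusted p-values from 0.0738 to 0.149, and kept without circHIPK3 siRNA replicate 1 (0.0258). In the fit that kept it the groups lie on different slides, so treatment and slide cannot be told apart there. Since the groups of Psmd5 do not overlap, its direction in the fits that leave out an array was fixed beforehand. Psmd5 had 1 probe among those named, so no second probe could be set beside it.

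**Figure D4:**
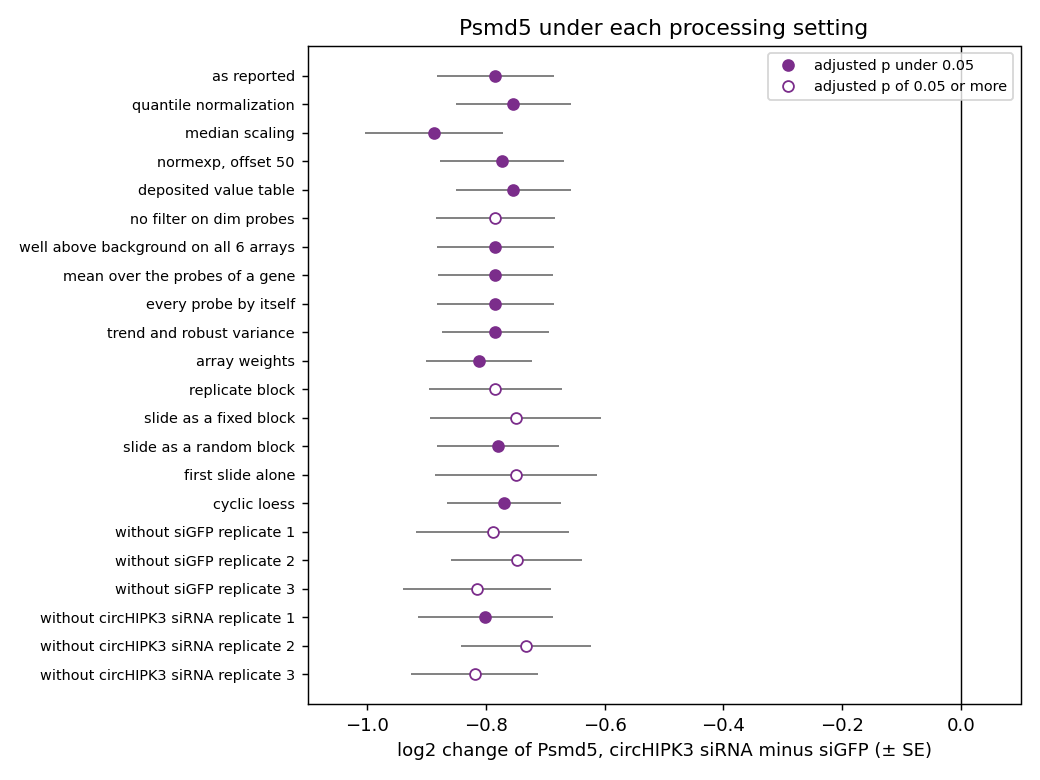
Log2 change of Psmd5 with its SE, circHIPK3 siRNA minus siGFP, as reported and under 21 other settings, filled where the limma adjusted p is under 0.05. All points lie between -0.89 and -0.73, and 12 of the 21 alternatives are filled. Filters on dim probes, probe summaries, trend and robust variance and the replicate block leave the point in place by construction.

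Txnl1 behaved similarly, with changes from -0.66 to -0.52 and a call in 10 of 21 alternatives. Its call was likewise lost without siGFP replicate 1, 2 or 3 and without circHIPK3 siRNA replicate 2 or 3 (limma adjusted p = 0.107 to 0.195). The fit that kept it, without circHIPK3 siRNA replicate 1, has its groups on different slides. None of the other 45 members was called in any of the 21 alternatives, with a lowest limma adjusted p of 0.132.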

How the data were processed

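Per the file headers, the submitters read the scanned arrays with Agilent Feature Extraction 11.0.1.1. The deposited files give each spot a background-subtracted intensity and flags. A deposited log2 value table, whose normalization is not given in the sources used here, was an alternative. It came close to quantile normalization, with core medians relative to all genes of -0.070 and -0.072 and cap medians of -0.022 and -0.024. The value table and quantile normalization are therefore not separate checks. For the main values, each array's intensities over 43020 non-control spots were divided by their 75th percentile and taken to log2, with outlier spots dropped and replicate spots averaged. Accessions were matched to RefSeq symbols (GRCm38.p6), naming 27234 of 39429 probes, and no probe coordinates are printed because the files use another build. The brightest kept probe stood for each gene. Slides were told apart by scan identifier. Groups were compared with limma 3.58.1 in R 4.3.3 (group as the only term), which was tested on simulated data. The design named normexp on the foreground signal, and the median foreground (offset 50) was used. Values on every array are given for called members, for the 2 smallest p-values and the change nearest the all-gene median of each class, and for catalytic subunits and activators. Lists give their called genes and 2 smallest p-values. Other members named were added for context. Members, lists and classes were chosen with earlier results of these data known. Cyclic loess was added after seeing the data. Figures used matplotlib 3.10.9.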

Additional observations from a re-analysis of the deposited data

How the results depend on the processing

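Psmd5 was called, as the 1 member lower, by limma in 11 of 15 processing alternatives and in 1 of 6 that leave out an array. That 1 leaves out circHIPK3 siRNA replicate 1, and treatment and slide coincide in it. Slide as a fixed block and the first slide alone both compare circHIPK3 siRNA replicate 1 with the siGFP arrays, so they are not separate checks. Filters on dim probes, probe summaries, trend and robust variance and the replicate block all reuse the same Psmd5 values. They change only its error or the adjustment, so the tally is not one of separate checks. The number of members called lower was 0 without a filter on dim probes, with slide as a fixed block and on the first slide alone, and 0 to 1 on leaving out an array. At an unadjusted p under 0.05 between 1 and 3 members were lower in every alternative, and 0 members were called higher in any. No pairing by replicate number was seen: deviations of same-numbered arrays correlated at -0.02, 0.27 and -0.13, and not every array correlated best with its own number. With 3 arrays a group, and slides that split only the circHIPK3 siRNA arrays, this check cannot exclude such pairing. With the replicate block 0 members and 0 genes were called (5133 genes at an unadjusted p under 0.05), and Psmd5 had a limma adjusted p of 0.0866.

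The core median relative to all genes was -0.072 under quantile normalization, -0.070 with the value table, -0.053 with cyclic loess, -0.024 with slide as a fixed block and -0.027 on the first slide. The cap median was -0.024 under quantile normalization, -0.022 with the value table and -0.017 with cyclic loess. Leaving out an array gave -0.17 to -0.11 for the core and -0.15 to -0.10 for the cap. The cause of these shifts was not tested.

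Over all genes 303 were called. The count was 602 with median scaling, 622 with trend and robust variance, 1558 with array weights, 185 with the value table, 177 with the stricter filter, 124 with slide as a random block, 92 on the first slide, 0 both with no filter and with slide as a fixed block (5631 and 2676 at an unadjusted p under 0.05), and 0 to 1756 on leaving out an array, the highest without circHIPK3 siRNA replicate 1. Without circHIPK3 siRNA replicate 1, treatment and slide split the arrays in the same way. The number of arrays limits the precision, with a median SE of 0.10 on the log2 scale for a core or cap gene.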
